A study of Homo sapiens with 6 samples.

Results

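The genes described here are long intergenic noncoding RNAs: every gene whose symbol is LINC followed by digits only and whose raw counts, summed over the 6 libraries, reached at least 100. There were 95 of them, of 874 LINC symbols listed and 24462 distinct gene symbols in all. The other LINC symbols were a group of 522 with a summed count of 1 to 99 and a group of 257 at 0. LINC00661 (101 counts), LINC01567 (103) and LINC01106 (106) lay just inside the limit, and LINC00634 (99), LINC01315 (99) and LINC01125 (96) just outside it. The members were thus chosen by measured values, their summed counts. Without the libraries of their highest group, 40 of the 95 (42.1%) would have fallen under 100, against 12.6% of all symbols with a summed count of at least 100. Such genes were kept because 1 group was high, so counts over the 95 are given as a description, together with those of the 55 that would have been kept anyway.

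All cells were labelled MDA-MB231, a triple-negative breast cancer line obtained from ATCC. By their labels, the ELK3-labelled libraries came from ELK3 knockdown cells transfected with pLenti-cMyc-DDK-ELK3, a plasmid for ELK3. The vector-labelled libraries came, by theirs, from the same knockdown cells given pLenti-cMyc-DDK, the plasmid without ELK3. The ELK3 levels given below run against these labels. In both, 1 µg of plasmid was delivered with the lipid reagent Lipofectamine 2000 and cells were collected after 48 hours. The control libraries came from cells infected with a control retrovirus, with no plasmid recorded, so that a comparison with them mixes the labelled knockdown with transfection. Each group had 2 libraries. The labels do not say whether these were separate cultures, and the p-values may then measure technical spread only. As whole cultures were sequenced, fewer cells of a type and less RNA per cell cannot be told apart.

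Long intergenic noncoding RNAs are transcribed from their own promoters between protein-coding genes, are spliced and polyadenylated like messenger RNAs, and as a class are expressed at lower levels and in fewer cell types than messenger RNAs. Some act on neighbouring genes through the act of transcription or by recruiting chromatin regulators, some titrate RNA-binding proteins in the cytoplasm, and many have no known role. A minority of transcripts first filed under LINC symbols were later found to encode small proteins and were renamed. The study changed ELK3, a member of the ETS family that partners SRF on DNA and can repress its targets.

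Among 68 members matched by gene to the RefSeq promoter table (GRCh38.p14, 250 bases before to 50 bases after the start), 8 promoters are printed. Of the noncoding members that were highest in a group and had a promoter in the table, they are the pair of each group that stood furthest above the next group by fold change, followed by a pair of members that encode mitochondrial small proteins. Capitals mark the letters CCGGAA (a form of the site that ETS factors bind) or TATAAA (the TATA box) on either strand. CCGGAA on the other strand thus reads TTCCGG, and other forms of the ETS site are not marked. LINC01158 and LINC00667 were highest in ELK3-labelled, LINC00368 and LINC01389 in vector-labelled, and LINC00704, LINC01224, LINC00116 and LINC00493 in control libraries.
LINC01158 (PANTR1, chr2:104851427-104851726, minus strand): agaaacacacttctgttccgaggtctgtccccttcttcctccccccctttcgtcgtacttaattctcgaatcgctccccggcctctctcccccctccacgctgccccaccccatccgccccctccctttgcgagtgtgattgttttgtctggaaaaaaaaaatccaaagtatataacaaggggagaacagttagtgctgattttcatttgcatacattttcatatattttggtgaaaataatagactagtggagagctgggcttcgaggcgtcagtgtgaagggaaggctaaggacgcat
LINC00667 (chr18:5237850-5238149, plus strand): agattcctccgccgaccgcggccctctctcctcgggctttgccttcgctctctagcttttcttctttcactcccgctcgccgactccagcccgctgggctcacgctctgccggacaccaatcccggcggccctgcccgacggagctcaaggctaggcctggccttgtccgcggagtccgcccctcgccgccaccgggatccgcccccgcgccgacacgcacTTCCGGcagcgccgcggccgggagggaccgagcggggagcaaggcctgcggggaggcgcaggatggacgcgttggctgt
LINC00368 (chr13:111095588-111095887, plus strand): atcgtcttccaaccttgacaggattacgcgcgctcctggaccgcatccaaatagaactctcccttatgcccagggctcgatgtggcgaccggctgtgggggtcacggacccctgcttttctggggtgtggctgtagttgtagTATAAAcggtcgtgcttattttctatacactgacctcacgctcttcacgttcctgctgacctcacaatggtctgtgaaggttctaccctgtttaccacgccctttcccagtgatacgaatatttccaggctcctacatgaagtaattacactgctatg
LINC01389 (chr1:47437268-47437567, minus strand): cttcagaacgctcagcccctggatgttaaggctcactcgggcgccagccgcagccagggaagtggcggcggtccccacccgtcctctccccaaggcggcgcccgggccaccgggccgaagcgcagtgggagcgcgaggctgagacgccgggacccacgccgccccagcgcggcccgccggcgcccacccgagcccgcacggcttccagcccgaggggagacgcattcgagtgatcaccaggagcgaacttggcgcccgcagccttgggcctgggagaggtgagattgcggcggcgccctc
LINC00704 (MANCR, chr10:4678021-4678320, minus strand): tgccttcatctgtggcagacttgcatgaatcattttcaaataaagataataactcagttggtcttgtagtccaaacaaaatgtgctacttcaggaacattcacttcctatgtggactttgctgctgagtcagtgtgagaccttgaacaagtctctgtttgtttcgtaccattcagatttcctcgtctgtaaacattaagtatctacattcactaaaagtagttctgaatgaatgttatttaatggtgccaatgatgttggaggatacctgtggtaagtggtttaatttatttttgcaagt
LINC01224 (chr19:23416025-23416324, minus strand): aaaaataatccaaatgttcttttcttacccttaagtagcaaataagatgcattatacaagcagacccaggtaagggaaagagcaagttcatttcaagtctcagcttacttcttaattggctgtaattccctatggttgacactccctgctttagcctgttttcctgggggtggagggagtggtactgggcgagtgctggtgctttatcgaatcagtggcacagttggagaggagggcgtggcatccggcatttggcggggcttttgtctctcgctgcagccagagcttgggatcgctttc
LINC00116 (MTLN, chr2:110212498-110212797, minus strand): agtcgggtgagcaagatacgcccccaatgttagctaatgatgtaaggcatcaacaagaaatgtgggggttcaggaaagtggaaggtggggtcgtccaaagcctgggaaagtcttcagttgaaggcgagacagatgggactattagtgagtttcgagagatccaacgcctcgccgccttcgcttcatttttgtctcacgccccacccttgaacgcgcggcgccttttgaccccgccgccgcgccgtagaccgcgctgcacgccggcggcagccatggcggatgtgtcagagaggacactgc
LINC00493 (SMIM26, chr20:18567182-18567481, plus strand): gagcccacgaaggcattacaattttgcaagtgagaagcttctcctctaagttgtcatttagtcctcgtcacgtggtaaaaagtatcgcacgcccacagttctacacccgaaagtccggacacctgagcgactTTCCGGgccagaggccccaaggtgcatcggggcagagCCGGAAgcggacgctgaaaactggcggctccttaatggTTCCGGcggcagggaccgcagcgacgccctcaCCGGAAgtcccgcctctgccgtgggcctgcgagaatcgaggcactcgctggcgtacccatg
The window of LINC00493 held 4 matches to CCGGAA and that of LINC00667 held 1, while LINC00368 had 1 TATAAA. Over all 68 member windows, CCGGAA was present in 14 (20.6%), against 17.2% of the 35114 promoters in the table. TATAAA was present in 9 (13.2%), against 11.5% of all promoters. The median GC content was 57.5% in members and 58.7% in all promoters. It was 62.7% in the 7 windows of members highest in ELK3-labelled libraries, 52.0% in the 15 of members highest in vector-labelled libraries and 62.7% in the 17 of members highest in control libraries. The median number of CpG dinucleotides was 22, 8 and 23 in those 3 sets, with GC contents that spanned 39.0% to 74.0% in the second set. A match to such letters is a description of the window and not a bound site.

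Library totals were 4884483 to 9131214 counts, and levels below are CPM, counts scaled by TMM to a common library size. ELK3 itself ran against the labels. It stood at 20.4 and 22.6 CPM in the ELK3-labelled libraries, 759 and 697 CPM in the vector-labelled libraries and 129 and 124 CPM in the controls. The count columns of the vector-labelled libraries are headed KD+E and those of the ELK3-labelled libraries KD. Whether the labels of the ELK3-labelled and vector-labelled groups are exchanged was not tested. Directions below follow the deposited sample labels, and if they are exchanged, each result of these groups belongs to the other condition. Genes typical of MDA-MB-231 were lower than control in 23 of 23 cases in both ELK3-labelled and vector-labelled libraries, with summed levels of 993 to 1037 CPM, 1100 to 1140 CPM and 9433 to 9563 CPM in ELK3-labelled, vector-labelled and control libraries, and none was at 0. Genes typical of HEK293 cells, an embryonic kidney line, were higher than control in 16 of 17 tested cases in ELK3-labelled and in 15 of 17 in vector-labelled libraries, where 1 was lower. Their summed levels were 1281 to 1282, 737 to 774 and 214 to 218 CPM in the same order, with DPPA4 at 0 throughout and PAX2 at 0 in the controls. Whether the plasmid groups and the controls differ by treatment or by the identity of the cells cannot be told apart, and this touches each comparison with control below. Liver genes, led by ALB at 3011 to 3986 CPM in each library, totalled 11938 to 12531 CPM in ELK3-labelled, 14735 to 15847 CPM in vector-labelled and 14654 to 15119 CPM in control libraries, and 19 of 20 were lower in ELK3-labelled than in vector-labelled libraries. Lymphocyte genes totalled 131 to 143, 172 to 193 and 170 to 178 CPM, luminal breast genes 623 to 660, 335 to 341 and 380.2 to 397 CPM, fibroblast genes 76.7 to 86.2, 79.4 to 96.0 and 53.2 to 55.6 CPM, and endothelial genes 13.0 to 13.7, 18.6 to 19.8 and 15.2 to 17.1 CPM in that order. The part of these cell types in the results was not tested.

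The 95 members made up a small share of RNA in every library. They took 0.1517% and 0.1500% of counts in ELK3-labelled, 0.1717% and 0.1780% in vector-labelled and 0.1798% and 0.1739% in control libraries, so the share was lowest in both ELK3-labelled libraries. Each member was tested with edgeR's quasi-likelihood test across 15386 genes, with an adjusted p under 0.05 as the call. In ELK3-labelled against vector-labelled libraries, 23 members were higher (24.2%) and 37 lower (38.9%), where the background over all genes tested was 30.0% higher and 29.6% lower. For vector-labelled against control libraries, 45 were higher (47.4%) and 28 lower (29.5%), beside a background of 37.0% and 35.3%. Between ELK3-labelled and control libraries, 28 were higher (29.5%) and 27 lower (28.4%), near the background of 31.8% and 30.8%. In either direction 60, 73 and 55 members were called in these comparisons (63.2%, 76.8% and 57.9%), beside a background of 59.6%, 72.3% and 62.6%. Over the 13711 symbols of all kinds with a summed count of at least 100, the background was 32.7% higher and 29.0% lower (61.7% in all) in ELK3-labelled against vector-labelled, 35.8% and 37.9% (73.7%) in vector-labelled against control, and 32.7% and 32.7% (65.4%) in ELK3-labelled against control libraries. Every one of these called members had non-overlapping groups. A call with 2 libraries per group nearly requires this, and the share over all called genes was not counted. Over the 55 members that did not owe their place to their highest group, the calls were 15 higher and 19 lower, 26 higher and 18 lower, and 18 higher and 16 lower in the same 3 comparisons. As shares of the 55 these were 27.3% and 34.5%, 47.3% and 32.7%, and 32.7% and 29.1%.

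**Figure D1:**
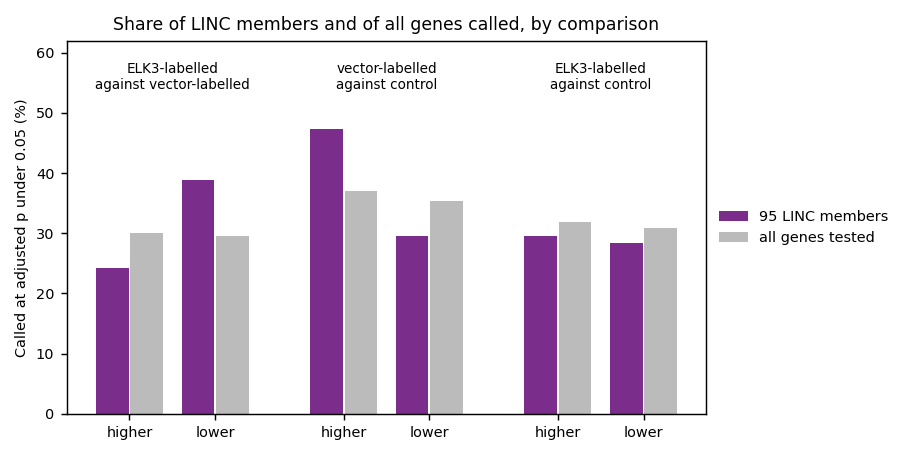
Share of the 95 LINC members (purple) and of all 15386 genes tested (grey) called higher or lower at an adjusted p under 0.05 in each comparison, in percent on the vertical axis. Members were called lower in ELK3-labelled than in vector-labelled libraries in 38.9% of cases against 29.6% of all genes, and higher in vector-labelled than in control libraries in 47.4% against 37.0%. Over the 55 members that did not owe their place to their highest group, these shares were 34.5% and 47.3%. They stood beside 29.0% and 35.8% of symbols with a summed count of at least 100.

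The median log2 fold change of the 95 members was -0.30, 0.34 and 0.18 in ELK3-labelled against vector-labelled, vector-labelled against control and ELK3-labelled against control libraries, beside -0.02, 0.05 and 0.02 for all genes. Over the 55 members that did not owe their place to their highest group it was -0.22, 0.30 and 0.03. Called differences of at least 8-fold rested largely on the other 40 members. In vector-labelled against control libraries they numbered 20 higher and 5 lower (21.1% and 5.26%), of which the 55 held 6 and 1 (10.9% and 1.82%), beside 6.69% and 1.94% of all genes tested and 4.49% and 1.66% of symbols with a summed count of at least 100. In ELK3-labelled against vector-labelled libraries they numbered 1 higher and 10 lower, beside 0.0585% and 2.15% of all genes and 0.0219% and 0.948% of symbols over that limit, and all of these members were among the 40. In ELK3-labelled against control libraries they numbered 4 higher and 4 lower, of which the 55 held 1 each, beside 4.1% and 2.24% of all genes and 3.28% and 1.7% of symbols over that limit.

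Each member was then assigned to the group it marked, meaning that it was called higher (or lower) there than in both other groups and that both libraries lay beyond all 4 others. Of the 95, 10 were highest in ELK3-labelled libraries, beside a background of 11.3% of all genes. Another 29 were highest in vector-labelled libraries (background 21.0%) and 20 in control libraries (background 23.5%). Lowest in ELK3-labelled libraries were 8 members (background 8.61%), which became 4 without ELK3-labelled replicate 1. Lowest in vector-labelled libraries were 12 (background 19.8%), and 23 were lowest in the controls (background 23.0%). Of these, 31 members were highest in 1 group and lowest in another, and 24 marked no group. For these last counts the shares over all genes were not computed, so they only describe the members. Of the 29 members highest in vector-labelled libraries, 16 were kept only through that group, as were 4 of the 10 of ELK3-labelled and 10 of the 20 of control libraries. The 16 include LINC00368, LINC00431, LINC00624, LINC00649, LINC00665, LINC01021, LINC01111, LINC01389, LINC01447, LINC01511, LINC01554 and LINC01567. The 4 are LINC00661, LINC00667, LINC01158 and LINC01521. Those of the controls include LINC00704, LINC00960, LINC01116, LINC01123, LINC01224 and LINC01279. For such members, p-values of comparisons with their highest group are a description only.

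**Figure D2:**
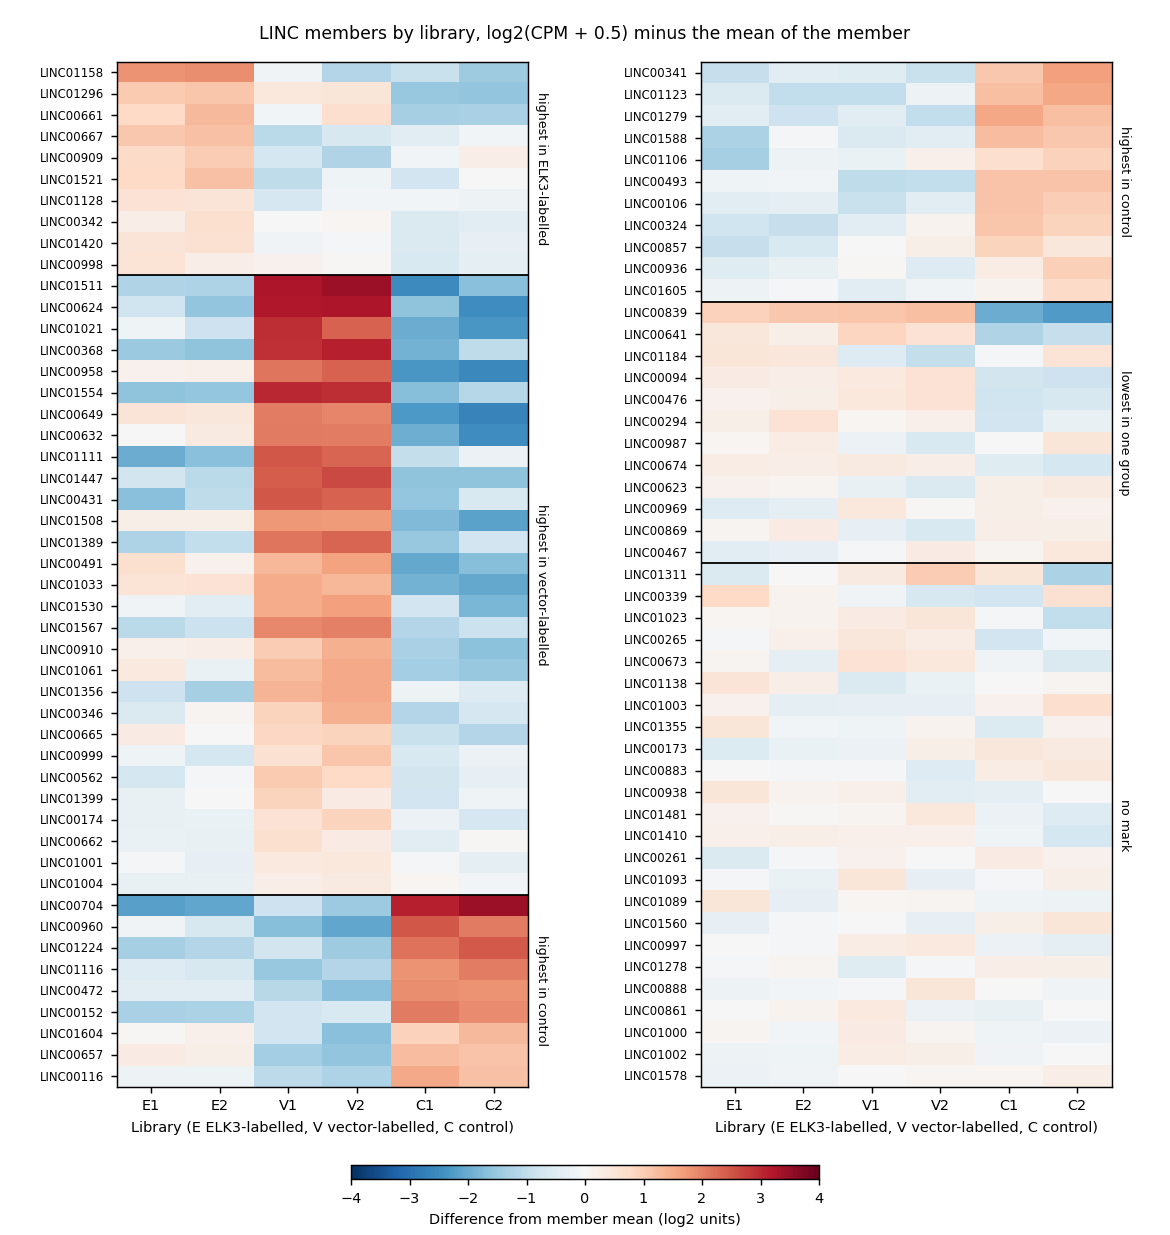
All 95 LINC members (rows) in each library (columns, E ELK3-labelled, V vector-labelled, C control), coloured by log2(CPM + 0.5) minus the member's mean over the 6 libraries, in log2 units. Among the blocks of members highest in a group, the 29 of vector-labelled libraries form the largest, before the 20 of control and the 10 of ELK3-labelled libraries. The other blocks hold members only lowest in a group and the 24 that marked no group. Replicate libraries share their colours in most rows.

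Several members have been studied in detail. LINC00152 (CYTOR, chromosome 2), a cytoplasmic RNA linked to cell migration and proliferation in many carcinomas, had 44.8 and 45.8 CPM in ELK3-labelled, 65.96 and 73.4 CPM in vector-labelled and 470.3 and 412 CPM in control libraries. It was high in both controls alone, with log2 fold changes of -3.28 ± 0.10 (SE; adjusted p = 1.5e-24) in ELK3-labelled and -2.67 ± 0.10 (adjusted p = 2.4e-22) in vector-labelled libraries against control. A near-identical copy of this gene lies elsewhere on the chromosome, and how its reads were assigned is not stated, so the value is uncertain. LINC00657 (NORAD, chromosome 20), which binds Pumilio proteins in the cytoplasm and is needed for stable chromosome numbers, had 135 and 127 CPM in ELK3-labelled, 41.1 and 35.8 CPM in vector-labelled and 254 and 236 CPM in control libraries. NORAD was highest in the controls and lowest in the vector-labelled libraries, with the ELK3-labelled ones between: 1.76 ± 0.10 (adjusted p = 6.4e-16) in ELK3-labelled against vector-labelled and -2.66 ± 0.10 in vector-labelled against control libraries.

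LINC00704 (MANCR, chromosome 10), named as a mitotically associated RNA and studied in triple-negative breast cancer, was close to absent outside the controls. It had 0.159 and 0.213 CPM in ELK3-labelled, 1.18 and 0.6 CPM in vector-labelled and 25.1 and 31.8 CPM in control libraries. With 3 counts in the ELK3-labelled group against 268 in the controls, the ratio of control to ELK3-labelled level was 149 (95% counting interval 50.3 to 725). The vector-labelled libraries were also far under the controls (-4.91 ± 0.32, adjusted p = 2.7e-15). LINC00704 was kept only through its control counts, so this p-value is a description. The call between ELK3-labelled and vector-labelled libraries rested on 3 and 11 counts and was lost without any of these 4 libraries except vector-labelled replicate 2, for example with an adjusted p of 0.274 without vector-labelled replicate 1.

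LINC01021 (PURPL), a target of p53 that restrains p53 levels, was instead highest in the vector-labelled libraries. It stood at 5.57 and 3.4 CPM in ELK3-labelled, 52.6 and 35.02 CPM in vector-labelled and 1.25 and 0.86 CPM in control libraries, so both vector-labelled libraries were above all others and both controls below. The log2 fold change was -3.36 ± 0.22 in ELK3-labelled against vector-labelled (adjusted p = 2.3e-14) and 5.36 ± 0.32 in vector-labelled against control libraries (adjusted p = 7.2e-16). LINC01021 was kept only through its vector-labelled counts, so these p-values are a description. LINC00346 (PRECSIT), another RNA that p53 regulates, was also highest in the vector-labelled libraries, at 5.25 and 8.82 CPM in ELK3-labelled, 15.7 and 22.8 CPM in vector-labelled and 3.35 and 4.95 CPM in control libraries. Its higher level in ELK3-labelled than in control libraries (0.81 ± 0.32) missed the threshold without ELK3-labelled replicate 2 (0.34, adjusted p = 0.486) or control replicate 1 (0.56, adjusted p = 0.173). LINC00472, described in breast cancer as a tumour suppressor, marked the controls as high and the vector-labelled libraries as low with 18.6 and 18.1 CPM in ELK3-labelled, 11.2 and 7.4 CPM in vector-labelled and 92.01 and 86.9 CPM in control libraries. LINC01604 (MINCR), an RNA induced by MYC, had the same order at 5.88 and 6.49 CPM in ELK3-labelled, 3.08 and 1.4 CPM in vector-labelled and 11.1 and 14.4 CPM in control libraries. For MINCR the difference between ELK3-labelled and vector-labelled libraries was 1.39 ± 0.34, and 2.14 without vector-labelled replicate 1.

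**Figure D3:**
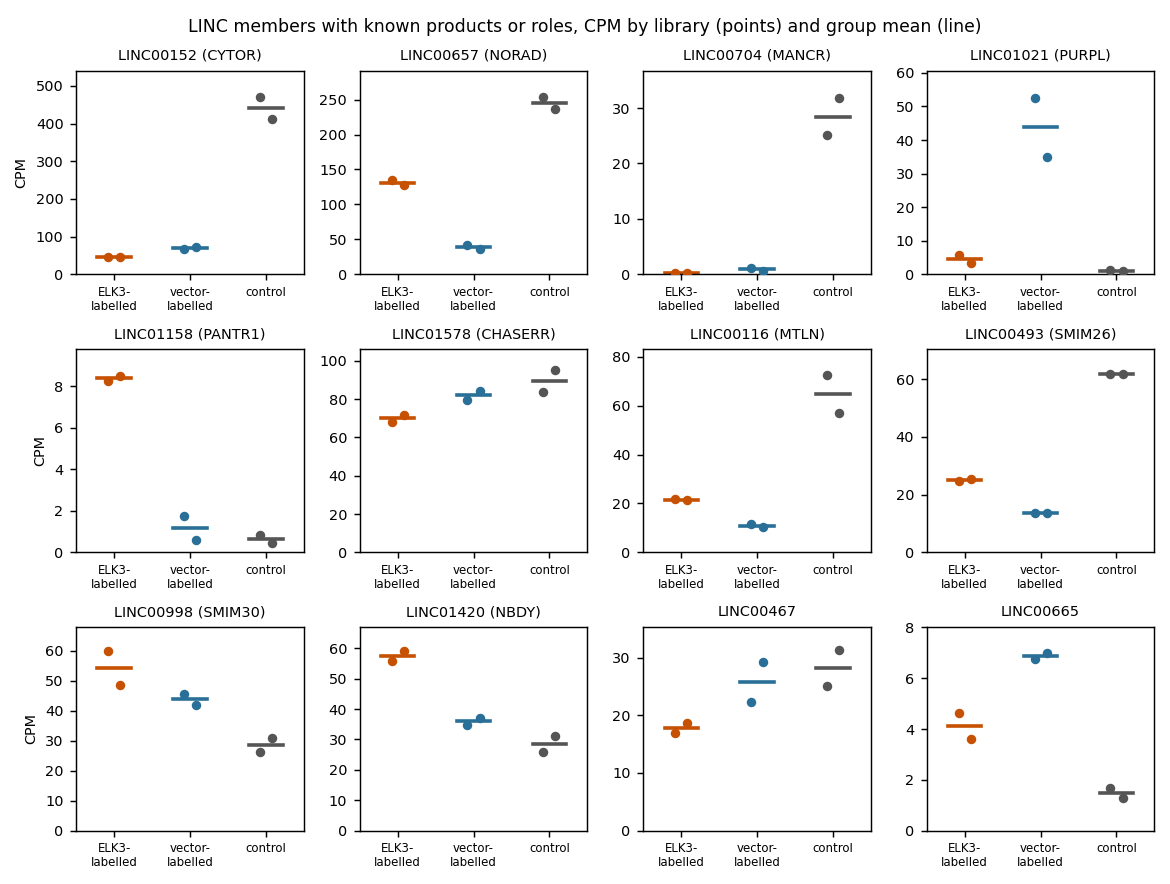
CPM of 12 LINC members with known products or roles in each library (points, vertical axis in CPM starting at 0), with the group mean as a line, in ELK3-labelled, vector-labelled and control libraries. CYTOR, NORAD, MANCR, MTLN and SMIM26 sit highest in both controls, PURPL and LINC00665 in both vector-labelled libraries, and PANTR1, SMIM30 and NBDY in both ELK3-labelled libraries.

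RefSeq lists all 95 members, 24 of them under another symbol. It types 87 as long noncoding RNA, 7 as protein-coding and 1 as a transcribed pseudogene. The genes with known small proteins did not share 1 pattern. LINC00116 (MTLN, chromosome 2) encodes mitoregulin, a small protein of the inner mitochondrial membrane that favours fatty acid oxidation. It had 21.6 and 21.4 CPM in ELK3-labelled, 11.8 and 10.2 CPM in vector-labelled and 72.6 and 56.98 CPM in control libraries, highest in the controls and lowest in vector-labelled libraries (0.96 ± 0.17, adjusted p = 1.7e-05, in ELK3-labelled against vector-labelled). LINC00493 (SMIM26, chromosome 20), also a small mitochondrial protein, had the same order, with 24.6 and 25.5 CPM in ELK3-labelled, 13.5 and 13.6 CPM in vector-labelled and 61.7 and 61.7 CPM in control libraries. For SMIM26 the log2 fold change was 0.89 ± 0.15 in ELK3-labelled against vector-labelled and -2.18 ± 0.14 in vector-labelled against control libraries.

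A pair of other small-protein genes stood in another order, highest in ELK3-labelled and lowest in control libraries. LINC01420 (NBDY), whose product binds the mRNA decapping machinery of P-bodies, had 55.7 and 59.2 CPM in ELK3-labelled, 34.8 and 37.02 CPM in vector-labelled and 25.7 and 30.97 CPM in control libraries. It was 0.68 ± 0.12 higher on the log2 scale in ELK3-labelled than in vector-labelled libraries (adjusted p = 7.9e-06). The smaller difference between vector-labelled and control libraries, 0.34 ± 0.14, was not called without control replicate 1 (0.19, adjusted p = 0.323) or without vector-labelled replicate 2 (adjusted p = 0.13). LINC00998 (SMIM30), a small membrane protein of the endoplasmic reticulum, had 60.1 and 48.6 CPM in ELK3-labelled, 45.7 and 42.02 CPM in vector-labelled and 26.3 and 30.8 CPM in control libraries. Its rise in ELK3-labelled over control libraries was 0.92 ± 0.13 (adjusted p = 3.4e-07). The difference from the vector-labelled libraries, 0.29 ± 0.12, was 0.15 without ELK3-labelled replicate 1 (adjusted p = 0.394) and 0.46 without ELK3-labelled replicate 2, and it lost its call without either vector-labelled library (adjusted p = 0.0506 and 0.157).

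LINC00467, reported to encode a micropeptide that associates with ATP synthase, was lowest in ELK3-labelled libraries at 16.9 and 18.6 CPM in ELK3-labelled, 22.3 and 29.2 CPM in vector-labelled and 25.1 and 31.4 CPM in control libraries. The call against vector-labelled libraries (-0.51 ± 0.16) was lost without vector-labelled replicate 2 (-0.31, adjusted p = 0.181), and the same held without ELK3-labelled replicate 1 (adjusted p = 0.0557). LINC00665, reported to encode a micropeptide that binds CIP2A, was highest in vector-labelled libraries, with 4.61 and 3.61 CPM in ELK3-labelled, 6.76 and 7.004 CPM in vector-labelled and 1.67 and 1.29 CPM in control libraries. Its lead over control was 2.20 ± 0.40 (adjusted p = 1.1e-05), while the call between ELK3-labelled and vector-labelled libraries (-0.76 ± 0.30) ended without either vector-labelled library (adjusted p = 0.093 and 0.0937), as well as without ELK3-labelled replicate 2 (adjusted p = 0.221). LINC00094 (BRD3OS), typed as protein-coding and lying across the bromodomain gene BRD3, was lowest in control libraries at 137 and 133 CPM in ELK3-labelled, 145 and 164 CPM in vector-labelled and 65.5 and 61.1 CPM in control libraries. Its reads and those of BRD3 could not be told apart where the genes overlap, since the counting is not stated to use strand.

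Of the members described next, LINC01158, LINC00632 and LINC01578 lie beside genes for transcription factors or a chromatin regulator. LINC01158 (PANTR1, chromosome 2) shares its locus with POU3F3, a neural POU-domain factor, and had 8.27 and 8.51 CPM in ELK3-labelled, 1.76 and 0.6 CPM in vector-labelled and 0.837 and 0.43 CPM in control libraries. Both ELK3-labelled libraries stood above the other 4, by 2.72 ± 0.39 (adjusted p = 2.8e-07) against vector-labelled and 3.68 ± 0.48 (adjusted p = 3.6e-08) against control libraries. Without vector-labelled replicate 1 the first of these was 3.77. LINC01158 was kept only through its ELK3-labelled counts, so both p-values are a description. POU3F3 was also called higher in ELK3-labelled libraries, by log2 fold changes of 2.05 against vector-labelled and 3.91 against control libraries. LINC00632, the host transcript of the circular RNA CDR1as on chromosome X, had 9.38 and 12.3 CPM in ELK3-labelled, 41.9 and 40.8 CPM in vector-labelled and 2.09 and 1.29 CPM in control libraries, and the circular product itself was not analysed here. It was highest in vector-labelled and lowest in control libraries, and its nearest tested protein-coding gene SOX3, a neural stem cell factor, differed by 2.13, 2.36 and 4.49 in ELK3-labelled against vector-labelled, vector-labelled against control and ELK3-labelled against control libraries. The first of these was opposite in direction to the change of LINC00632 (-1.90 ± 0.16).

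LINC01116, whose nearest tested protein-coding gene is MTX2 on chromosome 2, marked the controls at 3.18 and 2.87 CPM in ELK3-labelled, 1.32 and 1.8 CPM in vector-labelled and 17.6 and 21.1 CPM in control libraries. It was lower in vector-labelled than in control libraries (-3.64 ± 0.31, adjusted p = 1.8e-12), whereas the call between ELK3-labelled and vector-labelled libraries (0.96 ± 0.40) ended without any 1 of these 4 libraries, at adjusted p-values of 0.0503 to 0.251. LINC01578 (CHASERR, chromosome 15) is transcribed just before CHD2, a chromatin remodeller that it restrains in mice. It varied little, with 68.2 and 71.9 CPM in ELK3-labelled, 79.5 and 84.4 CPM in vector-labelled and 83.6 and 95.3 CPM in control libraries, and the only call was ELK3-labelled against control libraries (-0.35 ± 0.10, adjusted p = 0.0031), which ended without control replicate 2 (adjusted p = 0.0709). CHD2 itself differed by -1.57 in ELK3-labelled against vector-labelled and by 1.10 in vector-labelled against control libraries.

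The vector-labelled libraries held members that were nearly absent from the other groups. Of the 95 members, 8 (8.42%) averaged at least 5 CPM there and under 1 CPM in both other groups, as did 0.702% of all genes tested. LINC00704 alone (1.05%) had such a pattern in the controls, beside 0.468% of all genes tested. In the ELK3-labelled libraries 0 members had it, beside 0.013% of all genes tested. These cut-offs were chosen after the values were seen, and the 8 genes were kept for description through their vector-labelled counts. LINC01511 on chromosome 5 had 0.795 and 0.744 CPM in ELK3-labelled, 27.3 and 31.2 CPM in vector-labelled and 0 and 0.43 CPM in control libraries. In LINC01511 the ratio of vector-labelled to control level was 136 (95% counting interval 37.5 to 1131) on 342 and 2 counts, and the log2 fold change in ELK3-labelled against vector-labelled libraries was -5.22 ± 0.30 (adjusted p = 5.2e-16).

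LINC00624 on chromosome 1 had 1.11 and 0.425 CPM in ELK3-labelled, 24.97 and 25.8 CPM in vector-labelled and 0.418 and 0 CPM in control libraries. Its vector-labelled to control ratio was 119 (32.7 to 989), on 299 and 2 counts. LINC00368 on chromosome 13, whose promoter held the TATAAA letters, had 0.159 and 0.106 CPM in ELK3-labelled, 13.7 and 15.4 CPM in vector-labelled and 0 and 0.43 CPM in control libraries, with vector-labelled levels 113 times (30.8 to 939) the ELK3-labelled and 67.8 times (18.5 to 564) the control level. In both genes the vector-labelled pair alone was high, and no other group held more than 11 counts.

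LINC01554 on chromosome 5 had 0.477 and 0.532 CPM in ELK3-labelled, 23.7 and 22.8 CPM in vector-labelled and 0.418 and 0.86 CPM in control libraries, a log2 fold change of -5.46 ± 0.33 in ELK3-labelled against vector-labelled libraries. LINC01447 on chromosome 7 had 0.795 and 0.532 CPM in ELK3-labelled, 11.2 and 13.01 CPM in vector-labelled and 0.209 and 0.215 CPM in control libraries, and a vector-labelled to control ratio of 56.2 (15.3 to 469). LINC00431, which lies near LINC00346 on chromosome 13, had 0.159 and 0.532 CPM in ELK3-labelled, 11.3 and 10.2 CPM in vector-labelled and 0.209 and 0.86 CPM in control libraries. The vector-labelled lead of LINC00431 over control (4.30 ± 0.49) was 3.60 without control replicate 1 and 5.54 without control replicate 2, and that over ELK3-labelled libraries (-4.75 ± 0.45) became -5.89 without ELK3-labelled replicate 2. LINC01389 on chromosome 1 had 0.636 and 0.851 CPM in ELK3-labelled, 11.3 and 12.8 CPM in vector-labelled and 0.418 and 1.08 CPM in control libraries, and LINC01567 on chromosome 16, near the inclusion limit, had 0.477 and 0.638 CPM in ELK3-labelled, 7.34 and 7.8 CPM in vector-labelled and 0.418 and 0.645 CPM in control libraries. In none of the 8 did the ELK3-labelled and control libraries differ by a called amount. Their choice by a mean under 1 CPM in both groups nearly fixed this in advance. Such low counts cannot show that the groups are alike.

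**Figure D4:**
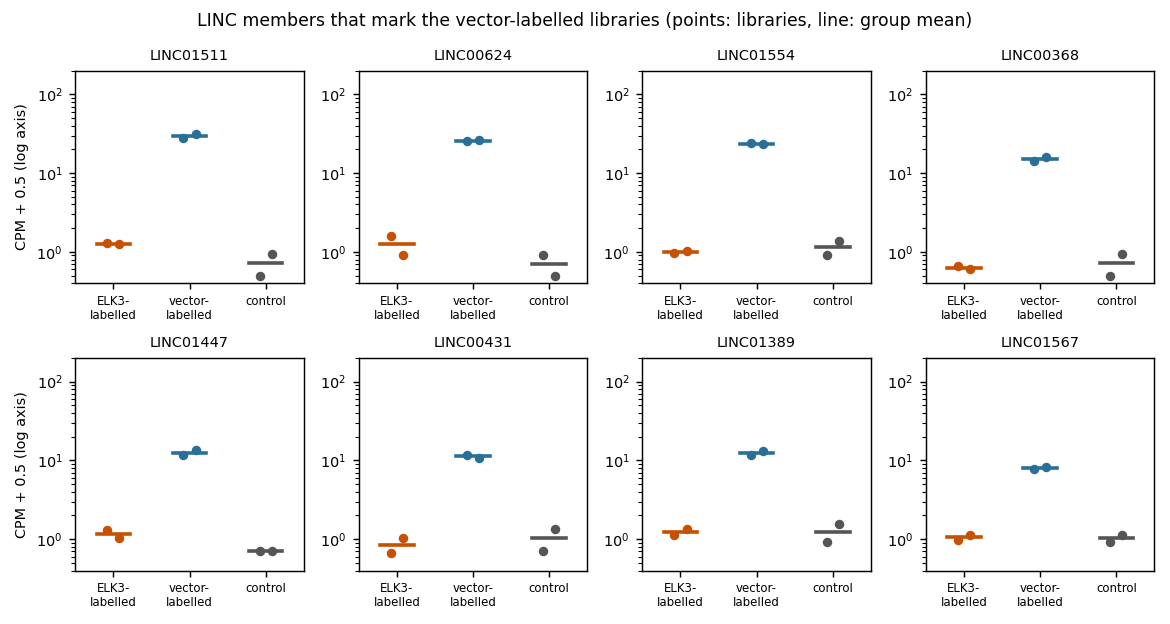
Level in each library (points, CPM + 0.5 on a log axis) and group mean (line) of the 8 LINC members nearly absent outside vector-labelled libraries, in ELK3-labelled, vector-labelled and control libraries. In each panel both vector-labelled libraries lie above the other 4, at 7.34 to 31.2 CPM against 0 to 1.11 CPM.

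Other members high in vector-labelled libraries were also present in ELK3-labelled libraries and lowest in the controls. LINC00958 on chromosome 11, described in several carcinomas, was among them, with 26.1 and 26.9 CPM in ELK3-labelled, 104 and 121 CPM in vector-labelled and 4.18 and 3.44 CPM in control libraries. Its log2 fold change was -2.08 ± 0.11 (adjusted p = 1.2e-16) in ELK3-labelled against vector-labelled and 2.79 ± 0.21 (adjusted p = 1.2e-13) in ELK3-labelled against control libraries. LINC00649 on chromosome 21 had 6.04 and 5.63 CPM in ELK3-labelled, 18.2 and 17.01 CPM in vector-labelled and 0.418 and 0.215 CPM in control libraries, where 3 control counts gave ratios to control of 18.2 (6.04 to 90.0) for ELK3-labelled and 55.6 (18.8 to 272) for vector-labelled libraries. LINC01033 on chromosome 5 had 8.9 and 9.14 CPM in ELK3-labelled, 17.5 and 15.6 CPM in vector-labelled and 1.25 and 1.08 CPM in control libraries. LINC00839 on chromosome 10 was lowest in the controls without a difference called between the other groups, at 7.95 and 8.93 CPM in ELK3-labelled, 9.11 and 9.8 CPM in vector-labelled and 0.627 and 0.43 CPM in control libraries. LINC00674, among the 8 members with the largest summed counts, likewise had 100.3 and 100.3 CPM in ELK3-labelled, 106 and 99.7 CPM in vector-labelled and 58.6 and 50.5 CPM in control libraries.

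LINC01296 was highest in ELK3-labelled libraries. RefSeq lists it as DUXAP9, a pseudogene of a double-homeobox gene with close copies, so that its reads may be shared with them. It had 96.4 and 99.7 CPM in ELK3-labelled, 61.5 and 65.03 CPM in vector-labelled and 15.9 and 15.1 CPM in control libraries, a log2 fold change of 0.64 ± 0.10 (adjusted p = 1.3e-06) against vector-labelled and 2.66 ± 0.13 against control libraries. LINC00667 on chromosome 18, whose promoter is shown above, had 10.8 and 11.7 CPM in ELK3-labelled, 2.06 and 3.002 CPM in vector-labelled and 3.56 and 4.52 CPM in control libraries, and rose by 2.19 ± 0.29 (adjusted p = 9.5e-08) against vector-labelled libraries. LINC01521 on chromosome 22 had 9.06 and 11.8 CPM in ELK3-labelled, 2.2 and 4.4 CPM in vector-labelled and 2.72 and 4.95 CPM in control libraries. In both genes the ELK3-labelled libraries stood clear of the other 4, among which vector-labelled and control libraries did not differ by a called amount.

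LINC01128 on chromosome 1 had 14.2 and 13.6 CPM in ELK3-labelled, 5.73 and 8.6 CPM in vector-labelled and 8.57 and 7.96 CPM in control libraries. The call of LINC01128 in ELK3-labelled against control libraries narrowly missed the threshold under DESeq2 (0.741, adjusted p = 0.0537). LINC00342, on chromosome 2, had 56.8 and 73.8 CPM in ELK3-labelled, 46.9 and 49.2 CPM in vector-labelled and 31.2 and 34.4 CPM in control libraries, and its call against vector-labelled libraries (0.46 ± 0.12) ended without ELK3-labelled replicate 2 (0.25, adjusted p = 0.143). LINC00661, at the inclusion limit, had 3.5 and 5.1 CPM in ELK3-labelled, 1.62 and 3.2 CPM in vector-labelled and 0.418 and 0.43 CPM in control libraries. Its call against vector-labelled libraries (0.92 ± 0.40, adjusted p = 0.046) ended without vector-labelled replicate 1 (0.46, adjusted p = 0.447) or ELK3-labelled replicate 2 (0.60, adjusted p = 0.398) and was 1.44 without vector-labelled replicate 2. The higher level of LINC00661 in vector-labelled than in control libraries also missed the threshold without vector-labelled replicate 2 (adjusted p = 0.0534), while that in ELK3-labelled over control libraries (3.31 ± 0.61) was called throughout.

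Members that marked the controls beside those above included LINC00960 on chromosome 3, which had 1.43 and 0.851 CPM in ELK3-labelled, 0.147 and 0 CPM in vector-labelled and 11.3 and 8.39 CPM in control libraries. A single count in the vector-labelled group gave ratios to it of 12.8 (2.01 to 535) for ELK3-labelled and 117 (20.4 to 4653) for control libraries. LINC01224 on chromosome 19 had 1.11 and 1.28 CPM in ELK3-labelled, 1.91 and 1.00 CPM in vector-labelled and 17.8 and 21.7 CPM in control libraries, and the controls stood clear of the other 4 libraries. LINC01123 on chromosome 2 had 2.7 and 1.91 CPM in ELK3-labelled, 1.91 and 3.6 CPM in vector-labelled and 10.5 and 13.5 CPM in control libraries. LINC01279, listed by RefSeq as CCDC80, an extracellular matrix protein gene, had 1.91 and 1.38 CPM in ELK3-labelled, 1.91 and 1.2 CPM in vector-labelled and 9.2 and 7.1 CPM in control libraries, with log2 fold changes of -2.33 ± 0.37 in ELK3-labelled and -2.33 ± 0.39 in vector-labelled against control libraries. LINC00857 on chromosome 10 followed the order of CYTOR, lowest in ELK3-labelled libraries, with 3.5 and 4.47 CPM in ELK3-labelled, 7.2 and 8.4 CPM in vector-labelled and 13.6 and 9.89 CPM in control libraries. The call of LINC00857 between vector-labelled and control libraries (-0.60 ± 0.25) ended without control replicate 1 (-0.37, adjusted p = 0.318) or vector-labelled replicate 1 (adjusted p = 0.175).

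Against the controls, 23 members were higher in both ELK3-labelled and vector-labelled libraries and 20 lower in both. Both comparisons use the same control libraries, and the share of all genes called alike in both was not counted. In 3 members the calls against control ran in opposite directions, as in 4.38% of all genes tested and 4.85% of symbols with a summed count of at least 100. LINC00909 on chromosome 18, listed by RefSeq as ZNF407-AS1, had 12.4 and 14.7 CPM in ELK3-labelled, 4.11 and 2.8 CPM in vector-labelled and 6.48 and 8.6 CPM in control libraries, with log2 fold changes against control of 0.86 ± 0.24 in ELK3-labelled and -1.08 ± 0.31 in vector-labelled libraries. LINC01356, beside the lactate transporter gene SLC16A1 on chromosome 1, had 4.77 and 3.19 CPM in ELK3-labelled, 23.4 and 25.8 CPM in vector-labelled and 7.53 and 6.02 CPM in control libraries. Its log2 fold change against control was -0.81 ± 0.29 in ELK3-labelled and 1.85 ± 0.22 in vector-labelled libraries. LINC01111 had 0.159 and 0.319 CPM in ELK3-labelled, 13.96 and 12.6 CPM in vector-labelled and 0.837 and 1.72 CPM in control libraries. For these last genes the lower level in ELK3-labelled than in control libraries was the weak side: in LINC01356 it missed the threshold without control replicate 1 (adjusted p = 0.125) or ELK3-labelled replicate 2 (-0.51, adjusted p = 0.214), and in LINC01111 (-2.23 ± 0.76) without control replicate 2 (adjusted p = 0.175) or ELK3-labelled replicate 1 (adjusted p = 0.0501). LINC01184 (SLC12A2-DT), lowest in vector-labelled libraries at 12.2 and 11.9 CPM in ELK3-labelled, 5.88 and 4.2 CPM in vector-labelled and 8.16 and 12.7 CPM in control libraries, missed the threshold against control without control replicate 2 (adjusted p = 0.0663).

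The remaining members are given by class. Another 12 were highest in vector-labelled libraries, where they averaged 6.10 to 39.3 CPM, and the smaller of their folds over the other groups was 1.25 to 4.05. They were LINC00174, LINC00491, LINC00562, LINC00662, LINC00910, LINC00999, LINC01001, LINC01004, LINC01061, LINC01399, LINC01508 and LINC01530. LINC00106, LINC00324, LINC00341, LINC00936, LINC01106, LINC01588 and LINC01605 were highest in the controls, at 5.10 to 32.8 CPM and by a smaller fold of 1.58 to 4.49. Lowest in 1 group with no single highest group were LINC00969 in ELK3-labelled libraries (4.72 CPM, 1.62-fold), LINC00623, LINC00869 and LINC00987 in vector-labelled libraries (8.01 to 22.9 CPM, 1.48-fold to 1.65-fold) and LINC00294, LINC00476 and LINC00641 in control libraries (5.42 to 7.33 CPM, 1.61-fold to 2.77-fold). A further 13 marked no group but were called in at least 1 comparison, with a widest fold of 1.32 to 2.03. These were LINC00173, LINC00265, LINC00339, LINC00673, LINC00883, LINC00888, LINC00997, LINC01000, LINC01003, LINC01023, LINC01138, LINC01278 and LINC01311.

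In 9 members no comparison was called, beside 13.2% of all genes tested. They were LINC00861, LINC00938, LINC01002, LINC01089, LINC01093, LINC01355, LINC01410, LINC01481 and LINC01560. LINC01093, enriched in liver, had 3.66 and 3.19 CPM in ELK3-labelled, 5.73 and 3.002 CPM in vector-labelled and 3.76 and 4.73 CPM in control libraries, and LINC00861, found in lymphocytes, had 3.18 and 3.51 CPM in ELK3-labelled, 4.26 and 2.6 CPM in vector-labelled and 2.51 and 3.23 CPM in control libraries. LINC00261, a partner of the endoderm factor gene FOXA2 on chromosome 20 and also abundant in liver, had 9.86 and 14.1 CPM in ELK3-labelled, 16.6 and 14.6 CPM in vector-labelled and 18.6 and 16.8 CPM in control libraries. All 3 were present in every library. LINC00261 was called lower in ELK3-labelled than in control libraries (-0.53 ± 0.20, adjusted p = 0.019). Without ELK3-labelled replicate 1 that difference was -0.32 (adjusted p = 0.21), without ELK3-labelled replicate 2 it was -0.84, and without control replicate 1 it also missed the threshold (adjusted p = 0.0963).

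The nearest protein-coding gene in RefSeq was itself tested for 77 members. Where member and neighbour were both called, they went in the same direction in 23 of 29 pairs (79.3%) between ELK3-labelled and vector-labelled libraries. The shares were 28 of 42 (66.7%) between vector-labelled and control libraries and 28 of 34 (82.4%) between ELK3-labelled and control libraries. Other long noncoding genes treated alike gave 75.0%, 77.7% and 84.2%, with 174 of 232, 248 of 319 and 187 of 222 pairs. Without pairs that overlap, the members gave 22 of 27 (81.5%), 25 of 38 (65.8%) and 26 of 32 (81.2%), and the other long noncoding genes 59 of 88 (67.0%), 87 of 126 (69.0%) and 60 of 78 (76.9%). These shares share libraries between comparisons and are given without a test. Of the members, 8 overlap the neighbour that was tested and 10 overlap some tested gene, and in those the reads of both genes may be mixed. For LINC00909, the neighbour ZNF407 differed by 1.00 in ELK3-labelled against vector-labelled and by -1.14 in vector-labelled against control libraries, the directions of the member itself.

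**Figure D5:**
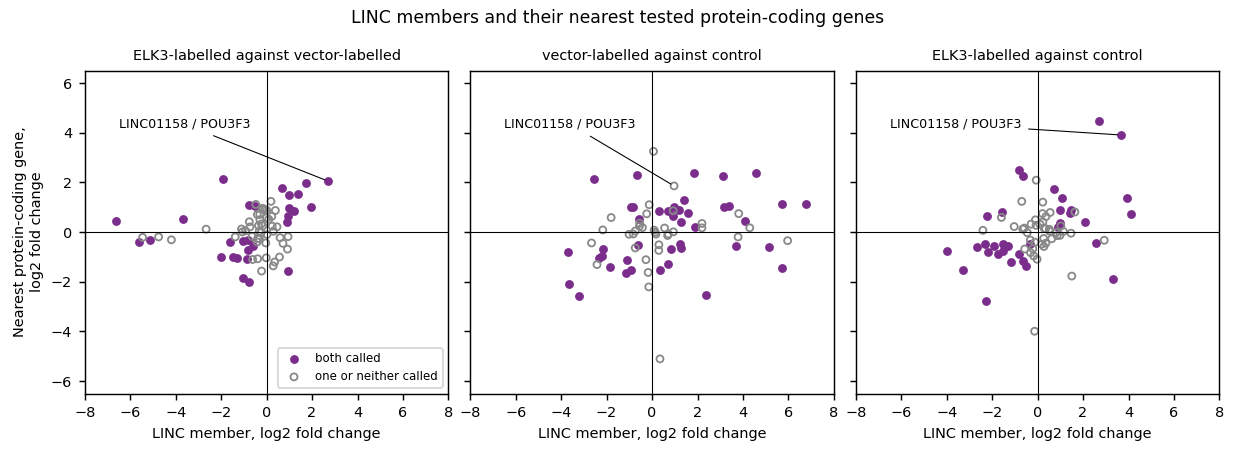
Log2 fold change of each LINC member (horizontal axis) against that of its nearest tested protein-coding gene (vertical axis) in the 3 comparisons, for 77 members, with filled points where both were called and open points otherwise. Filled points lie in the same-sign quadrants in 23 of 29, 28 of 42 and 28 of 34 pairs, and the pair LINC01158 and POU3F3 is labelled.

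Other noncoding genes gave a setting for these values. Of 47 long noncoding RNAs listed by name, 34 were tested, with 9 higher and 10 lower in ELK3-labelled against vector-labelled, 13 higher and 9 lower in vector-labelled against control, and 11 higher and 12 lower in ELK3-labelled against control libraries. HOTAIRM1, which lies among the HOXA genes, had 107 and 106 CPM in ELK3-labelled, 47.6 and 45.8 CPM in vector-labelled and 6.69 and 6.88 CPM in control libraries, and was thus highest in ELK3-labelled libraries. KCNQ1OT1, the imprinted antisense transcript of KCNQ1, had 194 and 221 CPM in ELK3-labelled, 502 and 472 CPM in vector-labelled and 62.7 and 55.5 CPM in control libraries, highest in vector-labelled libraries. UCA1, named for urothelial carcinoma, had 0.318 and 0.213 CPM in ELK3-labelled, 0.588 and 0.4 CPM in vector-labelled and 15.7 and 25.6 CPM in control libraries, and so marked the controls like MANCR. Among 16 tested hosts of small nucleolar RNAs with SNHG symbols, 2 were higher and 10 lower in ELK3-labelled against vector-labelled, 9 higher and 4 lower in vector-labelled against control, and 3 higher and 8 lower in ELK3-labelled against control libraries. Among 361 tested antisense symbols, 73 were higher and 121 lower in ELK3-labelled against vector-labelled, 159 higher and 82 lower in vector-labelled against control, and 125 higher and 79 lower in ELK3-labelled against control libraries. The shares over all genes, higher and lower, were 30.0% and 29.6%, 37.0% and 35.3%, and 31.8% and 30.8% in the same order.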

How the data were processed

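RNA was sequenced in 6 libraries, 2 per group, made with a LEXOGEN Quant-Seq kit per the labels' protocols. The deposited values are raw counts per gene symbol; Bowtie2, edgeR and the hg19 genome are named in the submitters' processing notes, and the counting tool, annotation, filters and use of strand are not given in the sources used here. Each table held 25737 lines; 1561 lines of 286 symbols, including 2 members, were summed by symbol. Totals were 4884483 to 9131214 counts, and a count of 3, the limit that 0 counts allow, stands for 0.318 to 0.644 CPM. Intervals and limits cover counting error only.

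Counts were fitted in R 4.3.3 with edgeR 4.0.16 (robust quasi-likelihood, TMM scaling, filterByExpr, 1 mean per group over all 6 libraries, 3 residual degrees of freedom). Two-sided p-values were corrected with the Benjamini-Hochberg procedure over 15386 genes and called under 0.05. SE was the absolute log2 fold change divided by the square root of F. For groups holding 1 to 3 counts, a ratio of levels with an exact 95% interval replaces the fitted fold. The test was tried on simulated data. Chi-square over degrees of freedom between the replicates was 2.53 in ELK3-labelled, 2.31 in vector-labelled and 3.22 in control libraries, above sampling noise. Such values cannot tell separate cultures from separate library preparations of the same culture. Alternatives were other scalings and filters, DESeq2 1.42.0, limma-voom (limma 3.58.1), a replicate block, other samples in the fit, and each library left out.

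Members, gene lists and rules were chosen with earlier results of these data known. Named members were the 8 with the largest summed count, those with the largest called changes of each comparison and mark (at least 2 CPM in the higher group), those called in opposite directions against control, and those at the edge of the limit. LINC00346, LINC00493, LINC00998, LINC01420, LINC00467, LINC00665, LINC00261, LINC01093, LINC01567 and LINC00861 were named after their values were seen, for known products or roles or as part of the class nearly absent outside the vector-labelled libraries. The remaining members are named by class only. Names, gene types, neighbours and promoters came from RefSeq tables of GRCh38.p14, matched by symbol. The files use hg19, so no other coordinates are given. A list of 16 microRNA host genes had 0 in the files and was not analysed here. Python 3.11.15, pandas 2.3.3, numpy 2.4.6, scipy 1.17.1 and matplotlib 3.10.9 were used.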

Additional observations from a re-analysis of the deposited data

How the results depend on the processing

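Counts of called members kept within 1.5 times their value under other scalings, other filters, DESeq2, limma-voom, the 4 compared libraries alone and symbols on several lines left out. In ELK3-labelled against vector-labelled libraries they ranged over 18 to 23 higher and 30 to 43 lower, in vector-labelled against control over 36 to 48 higher and 22 to 28 lower, and in ELK3-labelled against control over 25 to 30 higher and 21 to 27 lower. With each library left out in turn, members lowest in ELK3-labelled libraries numbered 4 to 6, against 8, with 4 without ELK3-labelled replicate 1; there are then fewer samples. The other 5 classes of marks stayed within 1.5 times. A summed count of at least 50 or 200 gave 141 or 66 members.

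Of 117 called comparisons of the 47 members followed through the alternatives, 100 kept their call under every alternative run and 17 lost it under at least 1, and 0 reversed. DESeq2 ended 10 calls, library totals 4, limma-voom 3, no filter 2, and the 4 libraries alone and the summed-count filter 1 each; the cause was not tested. The deviations of same-numbered libraries correlated at -0.001, 0.033 and -0.056, so no shared shift by replicate number was seen. Whether same-numbered libraries were prepared together cannot be told from these values. The fit with the replicate block called 22 members higher and 37 lower in ELK3-labelled against vector-labelled libraries, 46 and 28 in vector-labelled against control and 28 and 27 in ELK3-labelled against control. With the block the call of LINC00661 in ELK3-labelled against vector-labelled libraries missed the threshold (adjusted p = 0.072). Depth limits members near 0: levels under 0.644 CPM rest on 3 counts or fewer in some libraries.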
